A study of Mus musculus with 24 samples.

Results

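The Hox genes of clusters A, B, C and D were followed through 24 RNA-seq libraries of mouse colorectal tissue. Members were taken by symbol: Hox, a cluster letter from a to d, and digits only, without antisense or opposite-strand symbols. This gave 39 of the 24346 gene symbols in the files, 11 in cluster A, 10 in B, 9 in C and 9 in D. All mice had the AOM/DSS treatment (azoxymethane, a carcinogen, with dextran sulfate sodium, a colitis-inducing polymer), so no untreated colon was available as a control. The genotype label was c-MAF_KO or wild type, and each piece of tissue was labelled tumor or normal. By title, the KO label covers KO-1-hetero, KO-8-hetero and also KO-8-homo, each with 3 tumor and 2 normal libraries. The wild-type label covers WT-young, with 4 tumor and 2 normal libraries, and WT-old, with 1 tumor and 2 normal libraries. The labels explain neither the leading numbers 1 and 8 nor the ages, and they name no promoter, deleted exon or strain. They also give no position along the colon for any piece of tissue, and do not say whether libraries came from separate animals, so the p-values measure the spread between these libraries only.

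Hox genes encode homeodomain transcription factors that give cells their place along the head-to-tail axis. Each cluster is laid out in paralog order, from group 1, used toward the head, to group 13, used toward the tail, and the order on the chromosome follows the order of use along the body. In the gut the pattern persists in the adult: the 5′ genes, above all Hoxb13 and Hoxd13, mark the rectum and distal colon, while central genes such as Hoxb6 and Hoxb8 mark more proximal bowel. Epithelium and the underlying mesenchyme both express Hox genes, and bulk RNA cannot tell fewer cells of a type from less RNA per cell.

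In the GRCm38 (mm10) annotation, cluster A lies on the minus strand of chromosome 6 from 52155590 to 52260880, and cluster B on the plus strand of chromosome 11 from 96194316 to 96368256. Cluster C lies on the plus strand of chromosome 15 from 102921103 to 103036852, and cluster D on the plus strand of chromosome 2 from 74668310 to 74765142. Hoxb13 stands 74.0 kb from Hoxb9, whereas Hoxb4 to Hoxb8 occupy 39.7 kb. Hoxd13 to Hoxd10 occupy 26.8 kb, and 4.41 kb separate Hoxd9 from Hoxd8. The gap between Hoxb13 and Hoxb9 holds Mir196a-1, a gene of miR-196a, a microRNA known to cleave Hoxb8 mRNA; Mir196a-2 lies in cluster C. Its sequence and the matching stretch of the Hoxb8 transcript are shown because Hoxb8 was highest in the same normal libraries in which Hoxb13 was lowest. The mature miR-196a-5p of Mir196a-1 lies at chr11:96265187-96265208 (+), and miR-196b-5p, from chr6:52230129-52230150 (-) inside the annotated span of Hoxa9, shares its seed. Capitals mark the seed, bases 2 to 8, in the RefSeq microRNAs, and the bases opposite it in the Hoxb8 site at chr11:96284888-96284909 (+).
mmu-miR-196a-5p: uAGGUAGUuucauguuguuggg
mmu-miR-196b-5p: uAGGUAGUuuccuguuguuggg
Hoxb8 site: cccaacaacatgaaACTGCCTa
The site is in the 3′ UTR of Hoxb8 and pairs with miR-196a-5p at 21 of 22 bases, with a G:U pair at the other. Among the transcripts of the 39 members, the best match outside Hoxb8 paired at 15 bases, in Hoxa4. Mir196a-1 and Mir196b were listed at 0 in every library, and the labels describe an mRNA library kit, so no level of these microRNAs can be given.

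Promoter windows of RefSeq (GRCm38.p6, 250 bases before to 50 after the start) matched 22 members with 24 windows. Those of Hoxb8 and Hoxd13 are printed because these genes stand for the central and the 5′ groups. Hoxb8 was highest in the normal libraries in which Hoxd13 was lowest. Capitals mark TATAAA on either strand in both windows, and in Hoxb8 also TCGTAAA, a core sequence bound by group 13 Hox proteins. The windows are chr11:96281655-96281954 (+) for Hoxb8 and chr2:74667975-74668274 (+) for Hoxd13.
Hoxb8 promoter: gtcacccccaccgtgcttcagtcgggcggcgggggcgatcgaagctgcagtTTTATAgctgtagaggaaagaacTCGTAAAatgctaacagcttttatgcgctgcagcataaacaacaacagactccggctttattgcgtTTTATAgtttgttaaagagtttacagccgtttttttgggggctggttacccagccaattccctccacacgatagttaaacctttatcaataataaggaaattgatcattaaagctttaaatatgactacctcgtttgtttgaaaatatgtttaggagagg
Hoxd13 promoter: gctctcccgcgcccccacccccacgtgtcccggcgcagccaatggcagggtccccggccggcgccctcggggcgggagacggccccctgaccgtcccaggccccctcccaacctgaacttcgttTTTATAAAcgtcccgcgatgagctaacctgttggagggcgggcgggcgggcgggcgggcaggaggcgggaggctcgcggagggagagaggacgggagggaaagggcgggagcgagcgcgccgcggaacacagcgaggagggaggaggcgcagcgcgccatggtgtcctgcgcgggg
TATAAA, searched on both strands, occurred in 4 of the 24 Hox windows (16.7%), those of Hoxa10, Hoxb8, Hoxd4 and Hoxd13, and in 13.6% of all 32851 windows. TCGTAAA occurred in 2 (8.33%), Hoxb8 and Hoxd11, against 0.597% of all windows. CCAATAAA, the AT-rich core of group 13 proteins, and CCATAAA, a core bound by Cdx proteins, each occurred in 1 Hox window (4.17%), that of Hoxd4, against 1.12% and 2.75% of all windows. These are matches of letters only. The Hox windows had a median GC content of 57.7% and a median observed over expected CpG ratio of 0.626, against 52.7% and 0.384 over all windows.

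The libraries had between 12074 and 13290 genes at 1 FPKM or more. FPKM scales fragments to transcript length and library size, so levels are per length and can be set beside each other between genes. Relative depth, read from low values, spanned 2.64-fold between libraries. Maf, the gene the genotype label names, overlapped between KO-labelled tumors (2.62 to 7.40 FPKM) and WT-labelled tumors (1.63 to 7.26 FPKM), and the labels do not say what was deleted. The overlap rested on the WT-old tumor (7.26): the 4 WT-young tumors, at 1.63 to 2.26 FPKM, lay below all 9 KO-labelled tumors, so the named gene was not lower with the KO label. Xist was at 7.38 to 49.9 FPKM in 6 libraries, all with a hetero title, and at most 0.0719 in the other 18. Ddx3y, a gene of the Y chromosome, was at most 0.0454 FPKM in those 6 and at 7.20 to 14.8 in the other 18, so the libraries differ in sex. The 6 include every hetero normal library and no wild-type or KO-8-homo library. Sex and title group thus go together in normal tissue, and the part of sex in the Hox values was not tested. KO-8-hetero tumor 2 and WT-young tumor 2 held keratins of stratified squamous epithelium, with Krt5 at 1163 and 250 FPKM against at most 0.568 in every other library. The WT-old tumor held the most B-cell transcript, with Cd79a at 404 FPKM against at most 58.7 elsewhere. Smooth muscle markers were higher in normal than in tumor tissue: the mean level of the 6 genes was 7.10 to 10.03 on the log2(FPKM + 1) scale in normal and 4.47 to 8.71 in tumor libraries. All 6 epithelial markers were detected throughout, with mean levels of 8.53 to 9.94 on that scale.

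Of the 39 members, 25 reached 1 FPKM in at least 4 libraries and entered the tests: 9 of 11 in cluster A, 9 of 10 in B, 0 of 9 in C and 7 of 9 in D. Hoxb13 was the most abundant member, with a median of 137 FPKM over the 24 libraries and a range from 6.63 to 697. It made up between 4.24% and 82.3% of all Hox FPKM in a library, with a median of 47.6%. Next came the group 9 and 10 genes Hoxa10 (median 25.5, range 12.8 to 47.5 FPKM), Hoxb9 (15.2, 6.38 to 42.8) and Hoxa9 (14.3, 4.99 to 21.8), together with Hoxd13 (14.8, 0.0745 to 64.6) and Hoxa13 (12.5, 3.70 to 19.8). Cluster A varied least between libraries: the highest library was 2.83 to 5.47 times the lowest for its 9 tested members. In clusters B and D this ratio was 6.71 for Hoxb9 and at least 17.5 for every other tested member, with Hoxd12 listed at 0 in 2 libraries. The plot of all tested members by library shows a more even band for cluster A and patches of high and low level in B and D.

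**Figure D1:**
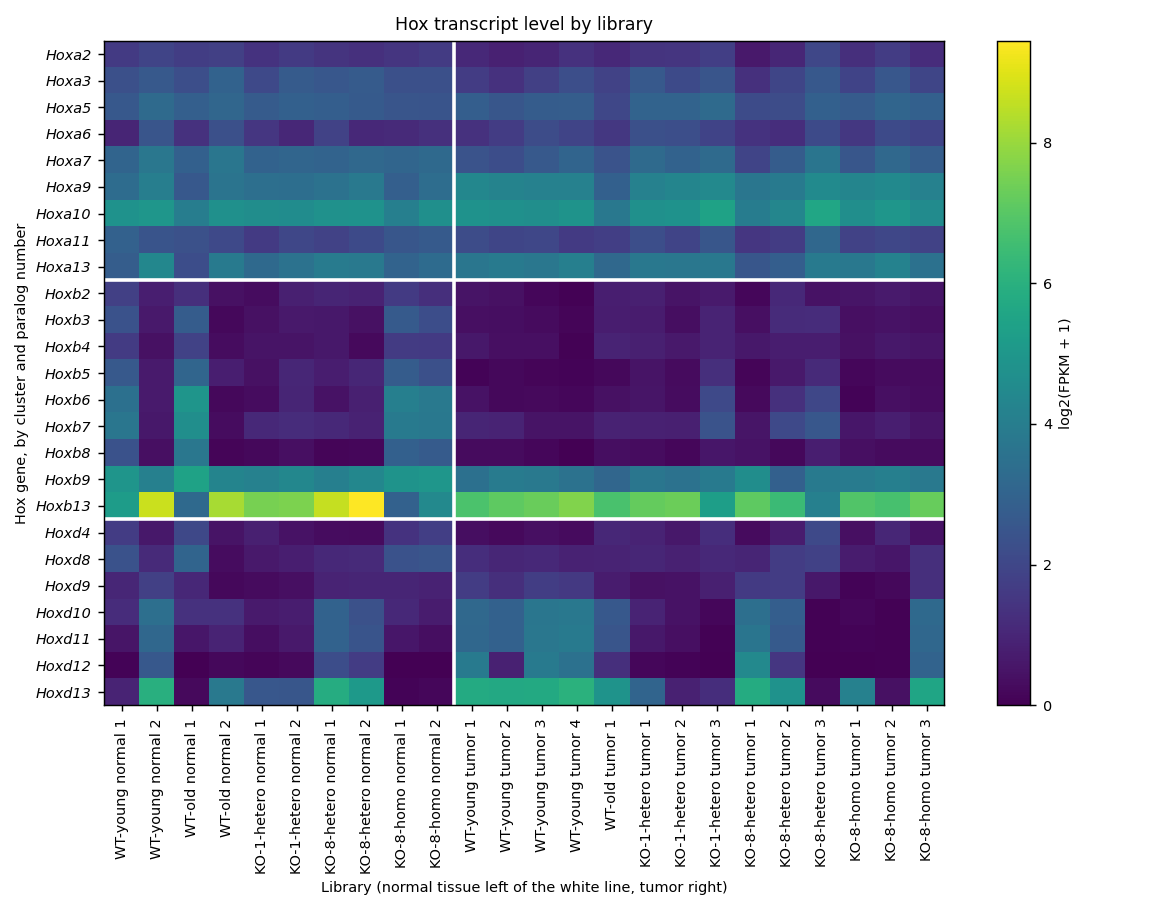
Level of the 25 tested Hox genes (rows, by cluster and paralog number) in the 24 libraries (columns, 10 normal left and 14 tumor right of the white line), as log2(FPKM + 1). Cluster A varies less across columns than B and D, Hoxb2 to Hoxb8 are high in 4 normal libraries, and Hoxb13, Hoxd12 and Hoxd13 are lowest in those 4 among the normal libraries.

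Of the 14 members below the filter, 12 stayed under 1 FPKM in every library. By the highest library, Hoxa4 reached 1.02 FPKM in WT-young normal 1 and Hoxd3 reached 1.37 FPKM in KO-8-hetero tumor 3. Cluster C was close to silent, as all 9 of its members stayed under 1 FPKM in every library. Of these, 8 had their highest value in KO-8-hetero tumor 2, and Hoxc12 was listed at 0 throughout. In that library Hoxc6 was at 0.702, Hoxc8 at 0.638 and Hoxc10 at 0.542 FPKM. It is also the library with the highest Krt5, Krt14 (3173 FPKM) and Trp63 (29.6 FPKM), whose part in these values was not tested. Hoxb1, Hoxd1 and the remaining cluster C genes never reached 0.5 FPKM, and Hoxb1 was listed at 0 throughout. Hoxa3 overlaps Hoxa4, Hoxa5 and Hoxa6 on the same strand, Hoxd4 overlaps Hoxd3, and Hoxa3 to Hoxa7, Hoxa11, Hoxb2, Hoxb3, Hoxb5, Hoxb6, Hoxd4 and Hoxd8 overlap opposite-strand RNAs. Since the strand setting of the counting is not given in the sources used here, reads of these pairs may be split or shared, and their values are uncertain to that extent.

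In normal tissue central Hoxb genes were high in the libraries where Hoxb13 was low, and both wild-type title groups were split. Hoxb6, a central paralog, measured 16.1 and 13.03 FPKM in KO-8-homo normal, 10.1 in WT-young normal 1 and 29.2 in WT-old normal 1. It measured 0.616 in WT-young normal 2, 0.148 in WT-old normal 2, 0.251 and 0.977 in KO-1-hetero normal, and 0.376 and 0.762 in KO-8-hetero normal. So 4 libraries were high and 6 low. The 2 wild-type title groups had 1 of each, and the 3 KO title groups were uniform.

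Hoxb13, at the 5′ end of the same cluster, was low in the libraries with high Hoxb6 and high in the other 6. It measured 6.63 and 20.7 FPKM in KO-8-homo normal, 36.0 in WT-young normal 1 and 8.41 in WT-old normal 1. The other 6 gave 416 in WT-young normal 2, 293 in WT-old normal 2, 183 and 191 in KO-1-hetero normal, and 392 and 697 in KO-8-hetero normal. The ratio of Hoxb13 to Hoxb9 FPKM ran from 0.197 in WT-old normal 1 to 35.5 in KO-8-hetero normal 2.

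The 4 libraries with the highest Hoxb6 were also the 4 highest normal libraries for Hoxb2, Hoxb3, Hoxb4, Hoxb5, Hoxb7, Hoxb8, Hoxb9, Hoxd4 and Hoxd8. With Hoxb6, which sets the 4 and so matches itself, that is 10 of the 25 tested members. Over all 13799 tested genes, 5.11% had those 4 libraries on top. Hoxb4 and Hoxb8 reached 1 FPKM in these 4 libraries alone, so they entered the tests through them and their match was fixed in advance. Hoxb2, Hoxb3 and Hoxb6 reached it in 5, 6 and 7 libraries, these 4 included. They too passed the filter only through these 4. The count therefore cannot be weighed against that share. The same 4 were the lowest for Hoxa9, Hoxb13, Hoxd12 and Hoxd13, where 4.09% of all tested genes had them lowest. Hoxa9 and Hoxa13 had the same 4 highest normal libraries as Hoxb13, so cluster A was not outside these orders: Hoxa13 measured 13.2 to 19.8 FPKM in those 4 and 3.70 to 10.9 in the other 6. In cluster B the change of order fell between neighbours: Hoxb9 was highest in the 4 libraries (27.7 to 42.8 FPKM, against 15.9 to 19.9 in the other 6), and Hoxb13, the next gene of the cluster, was lowest in them. In cluster D, Hoxd4 and Hoxd8 went with Hoxb6, and Hoxd13 shared both the 4 highest and the 4 lowest normal libraries with Hoxb13. Hoxd11 shared only the 4 highest with Hoxb13, Hoxd12 only the 4 lowest, and Hoxd9 and Hoxd10 had no such order. The share of all tested genes with the 4 highest libraries of Hoxb13 was not computed. These orders describe libraries ranked by a member's own level, and no test applies to them.

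Hoxd13 showed the greatest contrast in cluster D. It measured 0.0745 and 0.120 FPKM in KO-8-homo normal, 0.902 in WT-young normal 1 and 0.171 in WT-old normal 1. It measured 62.1 in WT-young normal 2, 56.3 and 32.9 in KO-8-hetero normal, 12.98 in WT-old normal 2, and 4.99 and 4.73 in KO-1-hetero normal. Hoxd10, Hoxd11 and Hoxd12 were highest in WT-young normal 2 (9.88, 8.01 and 5.08 FPKM) and the 2 KO-8-hetero normal libraries (4.14 to 6.80, 4.54 to 6.91 and 2.22 to 3.75 FPKM). In WT-old normal 2 and both KO-1-hetero normal libraries, Hoxb13 was high and Hoxb6 below 1, but the 5′ Hoxd genes other than Hoxd13 were low. WT-old normal 2 gave 1.52, 0.915 and 0.159 FPKM for Hoxd10, Hoxd11 and Hoxd12, and the KO-1-hetero pair gave 0.0979 to 0.670 FPKM.

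**Figure D2:**
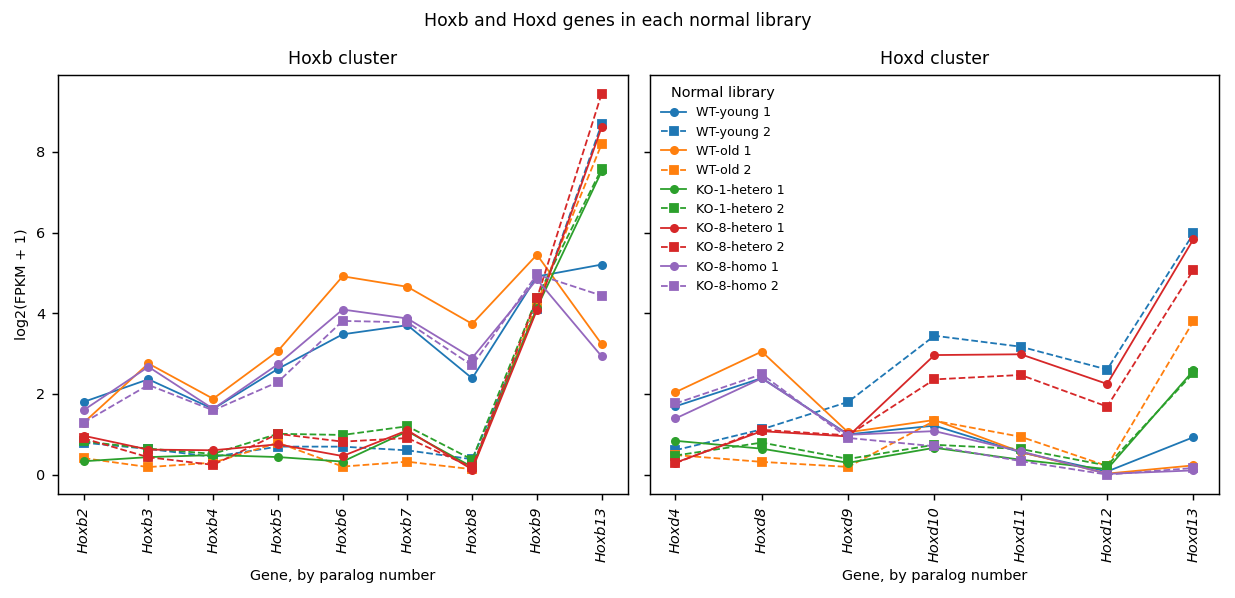
Level of the tested Hoxb genes (left) and Hoxd genes (right) by paralog number in each of the 10 normal libraries, as log2(FPKM + 1); colour marks the title group, circles and solid lines library 1, squares and dashed lines library 2. In 4 libraries (KO-8-homo 1 and 2, WT-young 1, WT-old 1) Hoxb3 to Hoxb8 are raised and Hoxb13 is lowered, so the lines cross between Hoxb9 and Hoxb13.

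Markers of position were read beside these orders. Among the proximal colon markers, Car1, Mettl7b, Emp1 and Fabp2 had the same 4 highest normal libraries as Hoxb6. Car1, a carbonic anhydrase of proximal colonocytes, measured 4494 to 13181 FPKM in those 4 and 820 to 2008 FPKM in the other 6. Of the 5 distal colon markers in the files, Prdx6, Tgm3 and Eno3 had those 4 libraries lowest. Tgm3, a transglutaminase, measured 0.983 to 4.75 FPKM in the 4 and 249 to 671 FPKM in the other 6. Retnlb, listed with the distal markers, did not follow them: it was at 530 to 3741 FPKM in the 4, at 1419 and 1583 in KO-1-hetero normal and at 3.74 to 12.1 in the others. Mean levels of the proximal list over all 10 normal libraries ran from 6.21 to 9.95, and of the distal list from 5.41 to 7.95, on the log2(FPKM + 1) scale. Cdx2, a caudal-type factor that activates Hox genes and sets intestinal identity, was also highest in the 4 (68.4 to 135 FPKM, against 19.7 to 51.7). Aldh1a1 and Aldh1a2, which make retinoic acid, an activator of Hox genes, shared the order (Aldh1a2: 4.53 to 7.25 FPKM, against 0.342 to 1.52). The part of colon position in the Hox values was not tested.

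The spread of the members inside title groups was uneven. Between the 2 WT-old normal libraries the median absolute difference of the 25 members was 1.04 on the log2(FPKM + 1) scale, against 0.220 over all tested genes. It was 1.27 against 0.358 in WT-young normal, 0.207 against 0.171 in KO-1-hetero normal, 0.190 against 0.139 in KO-8-homo normal and 0.192 against 0.433 in KO-8-hetero normal. WT-old normal 1 and 2 differed 198-fold in Hoxb6, 128-fold in Hoxb8, 34.9-fold in Hoxb13 and 75.7-fold in Hoxd13, as linear FPKM ratios. The lower value was 0.148 FPKM in Hoxb6, 0.0964 in Hoxb8 and 0.171 in Hoxd13. These lie near the floor, so the size of those ratios is uncertain. Over the 10 normal libraries, 11 of the 25 members were among the 5% of tested genes with the largest SD, namely Hoxb3, Hoxb5 to Hoxb8, Hoxb13, Hoxd8 and Hoxd10 to Hoxd13. Of these, Hoxb3, Hoxb6 and Hoxb8 passed the filter only through the normal libraries where they were high. The count therefore cannot be weighed against that 5%. Hoxb13 (SD 2.41 on the log2(FPKM + 1) scale) ranked 26 and Hoxd13 (SD 2.36) ranked 30 of 13799.

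Tested by limma, a linear model with moderated variances fitted to log2(FPKM + 1) of all 13799 genes, differences among the 5 normal title groups passed an adjusted p of 0.05 in 0 of the 25 members, against 3.02% of all tested genes. At an unadjusted p under 0.05 there were 6 members, with 3620 of all 13799 tested genes at that level, a share near that of the members, and the lowest adjusted p was 0.0979, for Hoxb13. Fits that left out 1 wild-type normal library called more members. Its title group then held 1 library and added nothing to the estimated spread, so those counts cannot be weighed. With all WT-old libraries left out, 4 members passed (5.81% of all tested genes), namely Hoxb3, Hoxb6, Hoxb13 and Hoxd8. Of these, Hoxb3 and Hoxb6 entered the tests only through normal libraries where they were high.

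In tumors the central Hoxb genes were low nearly everywhere, and Hoxb13 mostly lay between its low and high levels in normal tissue. Those were 6.63 to 36.0 FPKM in the low and 183 to 697 FPKM in the high normal libraries. Hoxb8 stayed below 1 FPKM in all 14 tumors, and Hoxb6 exceeded 1 FPKM in 3, KO-1-hetero tumor 3 (3.25), KO-8-hetero tumor 3 (3.03) and KO-8-hetero tumor 2 (1.5). Hoxb13 measured 149, 160 and 38.2 FPKM in KO-1-hetero tumors, 136, 85.9 and 16.3 in KO-8-hetero tumors, and 117, 103 and 151 in KO-8-homo tumors. It measured 109, 138, 157 and 199 FPKM in WT-young tumors and 105 in the WT-old tumor. So 12 of 14 tumors lay between 85.9 and 199 FPKM, and the other 2 were KO-1-hetero tumor 3 and KO-8-hetero tumor 3. Those 2 were also the highest tumors in Hoxa10, at 42.8 and 47.5 FPKM, in Cdx2, at 48.2 and 63.0 FPKM, and in Retnlb, at 769 and 1125 FPKM, and they were the only tumors with Xist above 1 FPKM. They were also the highest tumors in the mean level of the proximal colon list (8.10 and 8.71 on the log2(FPKM + 1) scale, against at most 6.75 in the others), and its part in the Hoxb13 values was not tested.

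**Figure D3:**
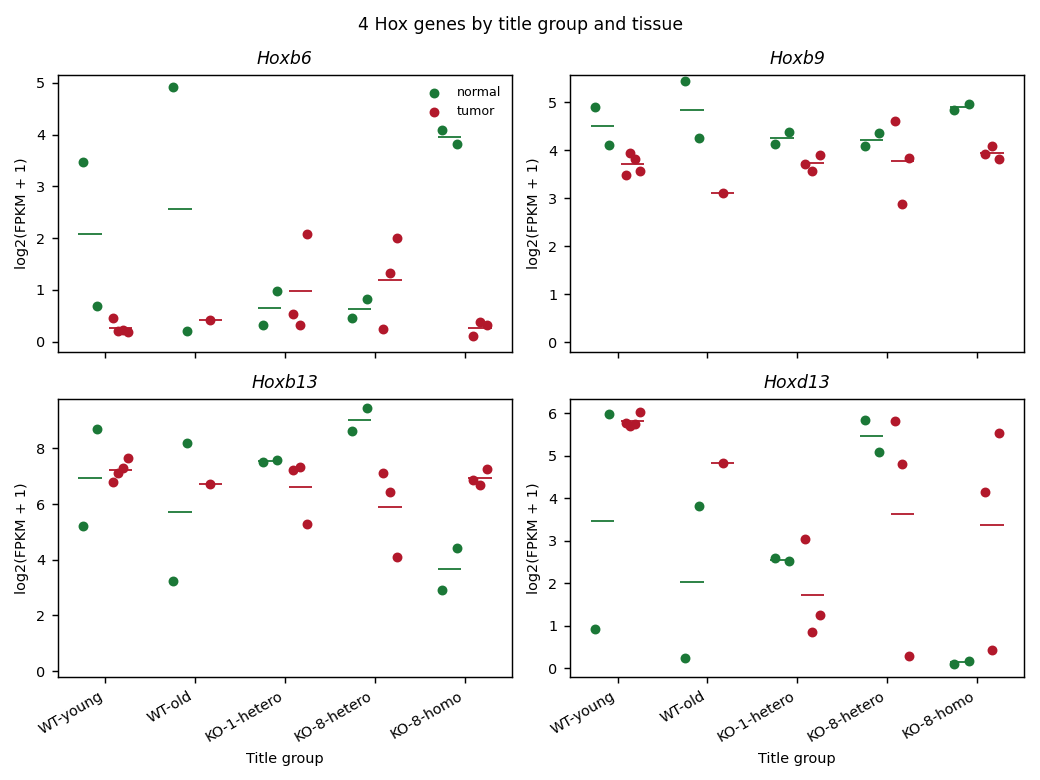
Hoxb6, Hoxb9, Hoxb13 and Hoxd13 by title group, as log2(FPKM + 1); each point is a library (green normal, red tumor) and each line the group mean. Hoxb6 and Hoxb13 normal libraries are split within WT-young and WT-old, and Hoxd13 tumors are split within KO-8-hetero and KO-8-homo.

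The 5′ Hoxd genes, which pattern limb digits and the end of the gut, separated tumors into high and low. Hoxd13 measured 53.8, 50.9, 52.4 and 64.6 FPKM in WT-young tumors and 27.6 in the WT-old tumor. It measured 7.22, 0.811 and 1.39 in KO-1-hetero tumors, 55.1, 27.0 and 0.226 in KO-8-hetero tumors, and 16.6, 0.346 and 45.6 in KO-8-homo tumors. All 5 WT-labelled tumors were thus high, the KO-1-hetero tumors low, and both KO-8 groups mixed. Hoxd10 and Hoxd11 were below 1 FPKM in the same 6 tumors, the 3 KO-1-hetero ones, KO-8-hetero tumor 3 and KO-8-homo tumors 1 and 2. In the other 8 tumors Hoxd10 measured 5.002 to 12.6 and Hoxd11 4.58 to 13.8 FPKM. Hoxd12 was at 21.0 FPKM in KO-8-hetero tumor 1 and 7.11 in KO-8-homo tumor 3. It was at 13.3, 13.8 and 10.6 FPKM in WT-young tumors 1, 3 and 4. It was lower in both tumors with squamous keratins, at 1.84 in KO-8-hetero tumor 2 and 0.838 in WT-young tumor 2, and was at 1.44 in the WT-old tumor. Over the 14 tumors, 5 members were among the 5% of tested genes with the largest SD, Hoxb13 and Hoxd10 to Hoxd13, and Hoxd13 (SD 2.23) ranked 21 of 13799. Hoxd11 and Hoxd12 reached 1 FPKM in only 3 normal libraries, so they passed the filter through the tumors where they were high. That count of 5 cannot be weighed either.

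With the KO label set against the WT label in tumors, 0 of 25 members passed an adjusted p of 0.05 in limma, where 0.00725% of all tested genes did. At an unadjusted p under 0.05 there were 5 members, all lower with the KO label, Hoxd9 to Hoxd13, and 1147 of all 13799 tested genes in either direction. Hoxd10 differed by -1.98 on the log2(FPKM + 1) scale (SE 0.60, adjusted p = 0.419 by limma), with 0.384 FPKM as the KO-labelled median of 9 and 8.13 as the WT-labelled median of 5. Hoxd11 differed by -2.04 (SE 0.65, adjusted p = 0.419), Hoxd13 by -2.71 (SE 1.11, adjusted p = 0.514), Hoxd12 by -1.65 (SE 0.74, adjusted p = 0.554) and Hoxd9 by -0.59 (SE 0.27, adjusted p = 0.577). The groups overlapped for each of these 5 genes, since KO-8-hetero tumor 1 or KO-8-homo tumor 3 reached WT-labelled levels. In a fit that weights libraries by their quality (arrayWeights), which called 17.1% of all tested genes, 7 members passed, with Hoxd9, Hoxd10, Hoxd11 and Hoxd13 lower and Hoxa2, Hoxa3 and Hoxa7 higher. In normal tissue 0 of 25 members passed (0% of all tested genes), and 0 had an unadjusted p under 0.05. The interaction of genotype label with tissue passed in 0 of 25 (0% of all tested genes), and 1 member, Hoxa2, was among the 654 of 13799 genes with an unadjusted p under 0.05 (0.61, SE 0.25, adjusted p = 0.986).

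Among the 5 tumor title groups, 1 of 25 members passed, Hoxa5 (adjusted p = 0.0473 by limma), where 9.94% of all tested genes did. Hoxa5, a group 5 gene known from lung development, measured 7.07, 7.02 and 8.58 FPKM in KO-1-hetero tumors, 3.52, 3.64 and 6.52 in KO-8-hetero tumors, and 5.61, 7.42 and 6.49 in KO-8-homo tumors. It measured 6.04, 4.82, 5.71 and 5.95 FPKM in WT-young tumors and 3.08 in the WT-old tumor, the lowest of the 14. KO-1-hetero tumors were the highest group and overlapped with KO-8-homo. The call for Hoxa5 was lost in 19 of the 24 fits that left out 1 library, with adjusted p from 0.00593 to 0.244. The count of members ranged from 0 to 6 in those fits, and the 6 came without KO-8-hetero tumor 3 (11.8% of all tested genes), when Hoxa9, Hoxa10, Hoxd9, Hoxd10 and Hoxd11 joined Hoxa5.

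**Figure D4:**
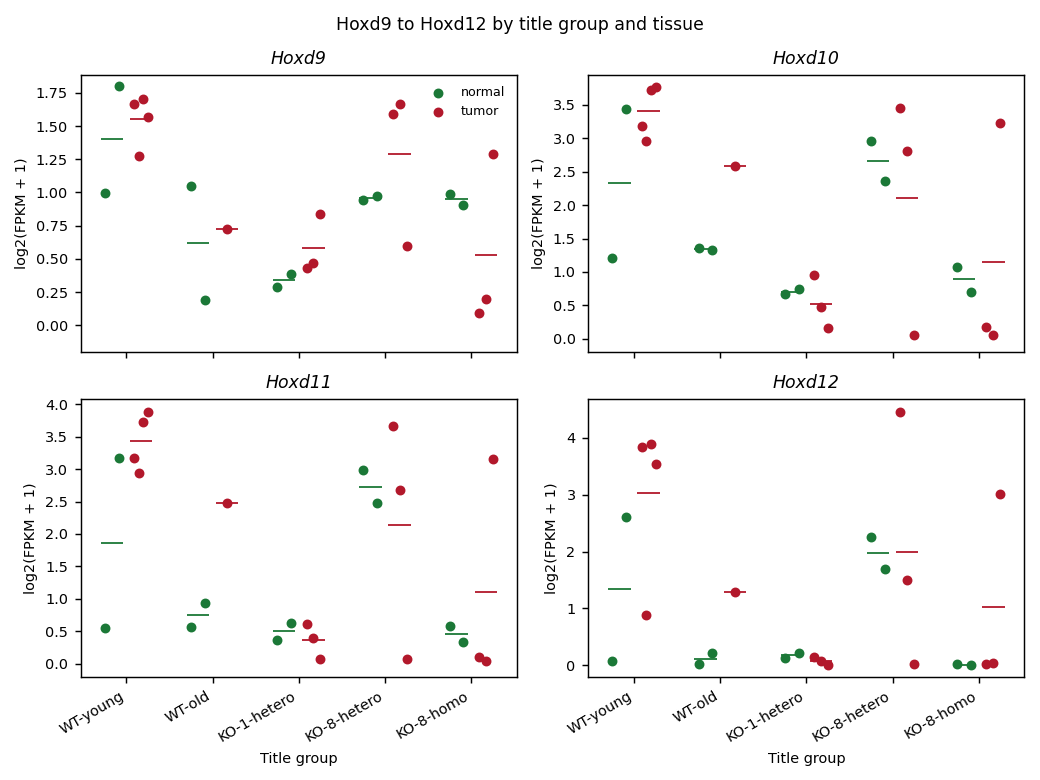
Hoxd9, Hoxd10, Hoxd11 and Hoxd12 by title group, as log2(FPKM + 1); points are libraries (green normal, red tumor) and lines are group means. All 4 WT-young tumors are high in Hoxd10 and Hoxd11, all 3 KO-1-hetero tumors are low, and the KO-8 groups hold tumors of both kinds.

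Against normal tissue, WT-labelled tumors had lower levels of several members of clusters A and B. Of the 25 members, 6 fell and 0 rose at an adjusted p of 0.05 by limma, where 30.4% of all tested genes were called in either direction and 14.8% fell. The median difference of the members was -0.58 on the log2(FPKM + 1) scale, against 0.02 over all tested genes. The 6 were Hoxa2, Hoxa3, Hoxa7, Hoxb2, Hoxb5 and Hoxb9. Hoxb2 passed the filter only through normal libraries in which it was high, as did Hoxb3, Hoxb4, Hoxb6 and Hoxb8. The call for Hoxb2, the count and the median therefore cannot be weighed against all tested genes. None of the 6 passed in every alternative fit.

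Hoxb9, a group 9 gene, measured 10.2, 14.4, 13.2 and 10.8 FPKM in WT-young tumors and 7.65 in the WT-old tumor. In WT-labelled normal tissue it measured 29.1, 16.2, 42.8 and 18.03 FPKM, in order WT-young 1 and 2 and WT-old 1 and 2. The groups did not overlap, and the difference was -1.09 (SE 0.28, adjusted p = 0.00636 by limma). Hoxa2, a group 2 gene known from hindbrain patterning, measured 1.12, 0.845, 0.975, 1.52 and 1.13 FPKM in the 5 tumors and 2.04, 2.88, 2.32 and 2.48 in the 4 normal libraries. Its groups did not overlap either (-0.70, SE 0.19, adjusted p = 0.00927 by limma).

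Hoxb5, a central gene linked to enteric neuron development, measured 0.0666, 0.155, 0.0991, 0.0704 and 0.143 FPKM in the tumors. The normal libraries gave 5.15, 0.618, 7.37 and 0.730 FPKM, all above the tumors (-1.65, SE 0.45, adjusted p = 0.00901 by limma). Hoxb5 and the opposite-strand RNA Hoxb5os overlap, and Hoxb5os fell with both labels (WT -2.04, adjusted p = 0.000838). Markers of enteric neurons and glia were lower in the same tumors, with mean levels of 0.348 to 0.845 against 0.933 to 1.72 on the log2(FPKM + 1) scale, and their part in the Hoxb5 value was not tested. Hoxb5 lost its call only without WT-old normal 1 (adjusted p = 0.0545), among the fits that left out 1 library.

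Hoxa3 measured 2.17, 1.56, 2.48, 3.88 and 2.64 FPKM in the tumors and 3.90, 5.21, 3.88 and 6.88 in the normal libraries (-0.75, SE 0.24, adjusted p = 0.0199 by limma). Hoxa7 measured 4.31, 3.68, 5.24, 7.29 and 4.40 FPKM in the tumors and 7.30, 12.4, 6.39 and 12.2 in the normal libraries (-0.80, SE 0.25, adjusted p = 0.0210). The highest tumor in both was WT-young tumor 4: in Hoxa3 it stayed just below the lowest normal library (3.876 against 3.878 FPKM), and in Hoxa7 it was above WT-old normal 1, so only Hoxa7 overlapped. Hoxb2 measured 0.426, 0.335, 0.117, 0.0417 and 0.732 FPKM in the tumors and 2.49, 0.730, 1.44 and 0.327 in the normal libraries, and the groups overlapped (-0.68, SE 0.25, adjusted p = 0.0427).

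The count depended on which normal libraries were in the fit. Without WT-young normal 2 it was 12 (27.3% of all tested genes), of which Hoxa9, Hoxd11, Hoxd12 and Hoxd13 rose, and without WT-old normal 2 it was 10 (27.1%), all lower. Without WT-young tumor 2, a tumor with squamous keratins, it was 3 (24.4%), and without all WT-old libraries it was 1 (19.4%), Hoxb2. Hoxb6, with -2.02 (SE 0.83, adjusted p = 0.0674), and Hoxd13, with 2.88 (SE 1.34, adjusted p = 0.103), did not pass. Hoxb13 gave 0.78 (SE 1.10, adjusted p = 0.616), and -0.26 without WT-old normal 1.

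**Figure D5:**
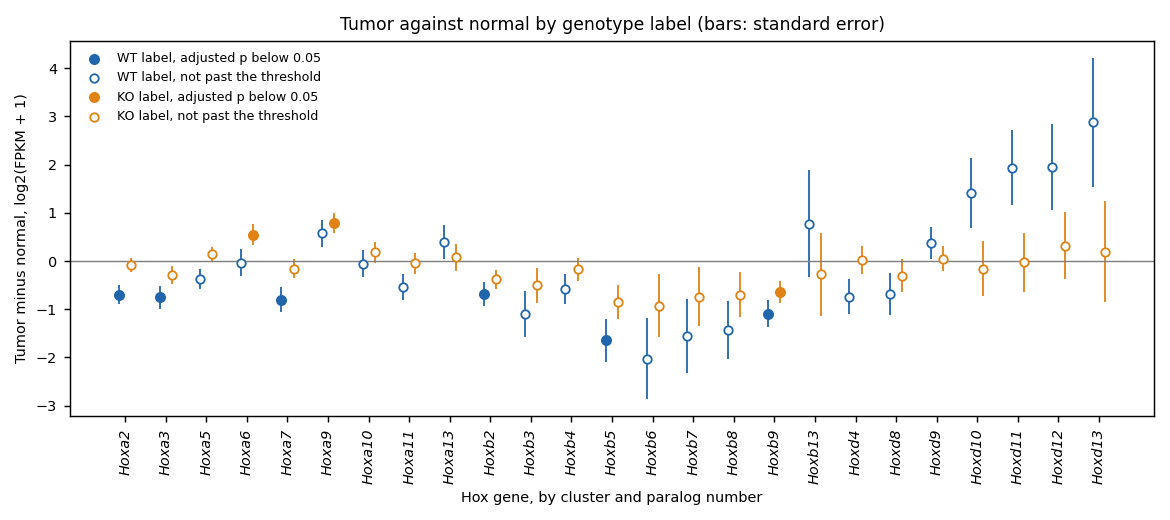
Difference of tumor minus normal for the 25 tested Hox genes on the log2(FPKM + 1) scale, blue for the WT label and orange for the KO label; bars are standard errors and filled points passed an adjusted p of 0.05. The WT-label points lie below 0 from Hoxb2 to Hoxb9, and for Hoxd10 to Hoxd13 they lie above 0 with wide errors.

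With the KO label, 3 of 25 members passed, 2 higher and 1 lower in tumors, where 47.2% of all tested genes were called in either direction, 24.1% higher and 23.2% lower. The median difference of the members was -0.16, against 0.02 over all tested genes. Hoxb2, Hoxb3, Hoxb4, Hoxb6 and Hoxb8 entered through high normal libraries here too, so this median cannot be weighed either. Under quantile normalization the split was 1 higher and 3 lower. Hoxa9, a group 9 gene best known from blood stem cells and leukemia, had a lowest, median and highest value of 12.1, 18.6 and 21.8 FPKM in the 9 tumors. In the 6 normal libraries these were 6.34, 9.78 and 13.2 FPKM. KO-8-hetero tumor 1 was the only tumor below the highest normal library, KO-8-hetero normal 2, and the difference was 0.79 (SE 0.22, adjusted p = 0.00482 by limma). This was the 1 call that held in all 36 fits, with adjusted p from 4.42e-05 to 0.0441. With the WT label Hoxa9 gave 0.57 (SE 0.27, adjusted p = 0.114): 4 WT-young tumors measured 16.8 to 19.8 FPKM, and the WT-old tumor 6.53.

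Hoxa6, whose gene overlaps the annotated span of Hoxa3, had a lowest, median and highest value of 1.38, 2.75 and 4.01 FPKM in KO-labelled tumors and 1.06, 1.35 and 2.62 in KO-labelled normal tissue. The ranges overlapped, the difference was 0.55 (SE 0.22, adjusted p = 0.0443 by limma), and the call was lost in 11 of 24 fits without 1 library. Hoxb9 had 6.38, 13.4 and 23.5 FPKM in the tumors and 15.9, 19.8 and 30.2 in the normal libraries, with KO-8-hetero tumor 1 and KO-8-homo tumor 2 above the lowest normal value (-0.65, SE 0.22, adjusted p = 0.0210). Its call was lost without either KO-8-homo normal library (adjusted p up to 0.0592). The count was 1, Hoxa9, without KO-8-homo normal 1 (46.8% of all tested genes) or 2 (45.0%), and 5 without KO-1-hetero normal 1 (46.0%). Hoxb13 gave -0.28 (SE 0.87, adjusted p = 0.813), or 0.13 under quantile normalization, and Hoxb6 -0.93 (SE 0.65, adjusted p = 0.246). Without the 6 libraries with Xist above 1 FPKM, which leaves the KO-8-homo libraries as the sole KO-labelled normal tissue, 12 members passed (26.8% of all tested genes), and Hoxb13 gave 3.31 (adjusted p = 0.0171). Whether the tumor difference of a gene differs between the labels is given by the interaction above.

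Genes that act with or on the Hox clusters were read from lists, against the shares of all tested genes given above: 15.5% rose and 14.8% fell with the WT label, 24.1% and 23.2% with the other. Of the 5 tested intestinal identity factors, 4 fell in WT-labelled tumors and 5 in KO-labelled tumors. Cdx2 fell by 3.04 (SE 0.63, adjusted p = 0.00128 by limma) and by 1.43 (SE 0.50, adjusted p = 0.0218), and Cdx1 by 1.82 and 1.74 in the same order. The list's median difference was -1.19 in WT-labelled and -0.95 in KO-labelled tissue. Of the 8 tested TALE cofactors, which bind DNA together with Hox proteins, 1 fell with the WT label (median -0.38) and 2 with the KO label (median -0.18). Pbx3 fell with both labels (-0.98, adjusted p = 0.0192, and -0.96, adjusted p = 0.00266), and Meis3 fell with the KO label (-0.56, adjusted p = 0.0443). Smooth muscle markers were lower in the same tumors, 6 of 6 with each label, and their part in the TALE values was not tested.

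Of the 18 chromatin regulators of Hox clusters, 4 rose and 0 fell with the WT label (median 0.21). With the KO label, 5 rose and 1 fell (median 0.15). The rises were near the shares of all tested genes, and the falls were below them. Ezh2, the Polycomb methyltransferase, rose by 0.98 (adjusted p = 0.000802) and 0.51 (adjusted p = 0.00872), and Ash2l, a subunit of the activating methyltransferase complexes, by 0.57 and 0.68. Of the 8 retinoic acid genes, 2 rose and 2 fell with the WT label (median 0.10), and 2 rose and 1 fell with the KO label (median 0.28). The retinaldehyde dehydrogenases moved apart: Aldh1a1 fell by 3.62 and 2.47, and Aldh1a3 rose by 2.97 and 2.92. Rdh10, a retinol dehydrogenase, rose by 1.16 and 1.63.

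Of the 9 neighbours of the clusters, 3 rose and 0 fell with the WT label (median 0.60), and 2 rose and 1 fell with the KO label (median 0.16). Evx1, a homeobox gene beside Hoxa13, rose by 2.09 (adjusted p = 0.00368) and 2.29 (adjusted p = 9.04e-05), and Snx10 by 1.31 and 0.67. Evx2, beside Hoxd13, was one of the genes with its 4 highest normal libraries in common with Hoxb13. Of the 5 cluster noncoding genes, 2 fell with each label (median -0.47 and -0.57), Hoxb5os and Hoxaas3. Between KO and WT labels, 0 genes of these 6 lists passed in tumors or in normal tissue.

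Marker lists of cell types were read the same way, since tumor and normal pieces can differ in makeup. In WT-labelled tumors, 6 of 6 smooth muscle, 3 of 3 enteric neuron and glia, 2 of 4 adipocyte, 4 of 6 proximal colon and 1 of 2 small intestine markers fell. In KO-labelled tumors, 6, 2, 4, 4 and 1 of those lists fell. Of the fibroblast markers, 1 of 6 rose in WT-labelled tumors, and 4 rose and 1 fell in KO-labelled tumors. Among leukocyte markers 2 of 6 rose with either label, and among squamous markers 1 of 4 did. Epithelial markers gave 0 of 6 in WT-labelled and 2 of 6, both lower, in KO-labelled tumors. Distal colon markers gave 0 of 5 and 2 of 5, both lower, and endothelial markers 0 of 4 and 1 of 4, higher. The part of these cell types in the Hox differences between tumor and normal tissue was not tested.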

How the data were processed

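RNA-seq was made from colorectal tumor and normal tissue with an mRNA library kit, per the labels' protocols. The authors deposited 1 table of FPKM values per library, and the submitters' processing notes name TopHat2 2.1.1, Bowtie2 2.2.8, SAMtools 0.1.18, Cuffdiff 2.2.1 and mm10, with no settings. No counts were used here, so sampling error per gene is unknown. Groups came from the genotype labels and titles.

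Here FPKM values were taken as log2(FPKM + 1), genes with at least 1 FPKM in at least 4 of 24 libraries were kept (13799 of 24346), and limma 3.58.1 in R 4.3.3 was fitted with a variance trend. One model held genotype label by tissue, another the 10 title groups. Tests were two-sided, with Benjamini-Hochberg adjustment over all kept genes and a threshold of 0.05; every adjusted p given is from limma. A fold on this scale understates changes of low genes. The code was tested on simulated data.

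The members, the 6 lists of related genes and the 11 lists of markers were chosen with earlier results of these data known. All members were accounted for; those past the threshold are given by library, those below the filter are named where their highest library reached 0.5 FPKM, and up to 3 list genes were taken by p. Some genes are not reported here. Sequences come from RefSeq (GRCm38.p6) and, for the Hoxb8 site, GENCODE on GRCm38. Same-numbered tumor and normal libraries of a title group gave correlations of their deviations between -0.16 and 0.35, with 1 of 8 above 0.1, and were not treated as pairs. Each normal group held 2 libraries, whose deviations mirror each other, so these correlations cannot decide whether libraries were paired. Alternatives changed the pseudocount, filter, scaling, variance model or libraries.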

Additional observations from a re-analysis of the deposited data

Results flagged for a closer look

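Values by library were looked at in 100 groups of 4, 5, 6 or 9 libraries (25 members in 4 label and tissue groups), and 10 held a library whose gap to its neighbour was large for the group's range. Chance would give about 1 in 20 groups such a gap if values were independent with a bell-shaped spread. The gaps were taken on linear FPKM and neighbouring members flagged the same library, so the 10 cannot be set against that rate. The WT-old tumor was the lowest of the 5 WT-labelled tumors in Hoxa9, at 6.53 FPKM with 16.8 next, and in Hoxa10, at 12.8 FPKM with 24.3 next. It was the highest of them in Hoxd4, at 1.10 FPKM with 0.297 next. WT-young normal 2 was the highest of the 4 WT-labelled normal libraries in Hoxd10, at 9.88 FPKM with 1.56 next, in Hoxd11, at 8.01 FPKM with 0.915 next, and in Hoxd12, at 5.08 FPKM with 0.159 next. KO-8-hetero tumor 3 was the highest of the 9 KO-labelled tumors in Hoxa11, at 7.97 FPKM with 4.84 next, and in Hoxd4, at 3.26 FPKM with 1.35 next. KO-8-hetero tumor 1 was the highest of them in Hoxd12, at 21.0 FPKM with 7.11 next. KO-8-homo normal 1 was the lowest of the 6 KO-labelled normal libraries in Hoxa10, at 15.8 FPKM with 23.5 next.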

How the results depend on the processing

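The count of members called in WT-labelled tumors against normal tissue (6) was 15 with quality weights (arrayWeights; 51.8% of all tested genes called), 1 without WT-old libraries (19.4%), 10 without the libraries with Xist above 1 FPKM (37.8%), 3 without the 2 tumors with squamous keratins (chosen after seeing the data; 25.7%), and 3 to 12 leaving out 1 library. In KO-labelled tissue (3) it was 4 under quantile normalization (44.1%), 9 with quality weights (57.8%), 12 without the Xist libraries (26.8%; 2 higher, 10 lower) and 1 to 5 leaving out 1 library. Between labels in tumors (0) it was 7 with quality weights (17.1%) and 0 leaving out 1 library. Between labels in normal tissue, and for the interaction, it was 0 in every fit. For normal title groups the range leaving out 1 library is not given, since leaving out a normal one left its group with 1 library. Among normal title groups (0) the count was 2 with quality weights (3.15%) and 4 without WT-old libraries (5.81%). Among tumor title groups (1) it was 0 with no filter, 2 under quantile normalization (11.7%), 5 with quality weights (34.6%), 0 without WT-old libraries (0.701%), 0 without the squamous tumors, 3 without KO-8-homo tumor 3 (8.05%), and 0 to 6 leaving out 1 library.

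Hoxb13 changed direction most. In KO-labelled tissue it gave 0.13 under quantile normalization, 0.98 with quality weights, 3.31 without the Xist libraries and -1.04 to 0.26 leaving out 1 library, positive without KO-8-hetero tumor 3 or either KO-8-hetero normal library. With the WT label it gave -0.26 to 1.57 leaving out 1 library. With the replicate number as a block over 9 pairs, the counts against normal tissue were 3 in WT-labelled (16.2%) and 1 in KO-labelled tissue (38.7%), and Hoxb13 gave 0.19 in the latter. The block leaves no estimate of the label and title group differences. Of 756 single-gene values under alternatives, 664 kept direction and side of the threshold, 66 lost a call, 18 gained one and 8 reversed. The causes were not tested. Depth could not be read as counts.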
